A study of Rattus norvegicus with 6 samples.

Results

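The growth hormone, prolactin and insulin-like growth factor (IGF) axis was represented by 10 genes: the receptors Ghr and Prlr, the signalling genes Stat5b and Socs2, the hormone Igf1, its carrier subunit Igfals, and the binding proteins Igfbp1, Igfbp2, Igfbp3 and Igfbp4. The members were the probes whose RefSeq accession in the array files belongs to one of these genes. All 10 genes had a probe, and they had 14 probes in all, out of 15443 genes with a symbol and 30367 probes on the array. Liver was taken from 3 normal rats and from 3 others in which fibrosis had been induced by bile duct ligation, in which the bile duct is tied off so that bile backs up and the liver scars. One array was hybridised per animal with total RNA from liver tissue blocks. Strain, sex, age, the time after ligation and whether the normal rats had a sham operation are not given in the sources used here.

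Growth hormone from the pituitary binds its receptor on hepatocytes, which activates the kinase JAK2 and the transcription factors STAT5A and STAT5B. STAT5 drives transcription of Igf1, Igfals and Socs2, and the SOCS2 protein in turn damps the receptor. The liver is the main source of circulating IGF1, most of which travels in a complex with IGFBP3 and the acid-labile subunit that Igfals encodes, while IGFBP1, IGFBP2 and IGFBP4 form smaller complexes. The prolactin receptor belongs to the same cytokine receptor family and also signals through JAK2 and STAT5.

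Promoter sequences are shown for the receptors and the carrier subunit that fell, and for Igf1 and Igfbp1, which did not pass the test, so that the letters can be read beside the measurements. Each is the 250 bases before a transcription start in the RefSeq promoter table of the GRCr8 assembly, 5′ to 3′, in lower case. The table held 10 windows for 9 of the 10 genes, and none for Socs2. Capitals mark TTCNNNGAA, the spaced palindrome that STAT5 binds, and CAAAACAA, the core of the insulin response element known from the Igfbp1 promoter. The second of these motifs was chosen after the windows had been read.
Prlr, chr2:60909409-60909658, plus strand: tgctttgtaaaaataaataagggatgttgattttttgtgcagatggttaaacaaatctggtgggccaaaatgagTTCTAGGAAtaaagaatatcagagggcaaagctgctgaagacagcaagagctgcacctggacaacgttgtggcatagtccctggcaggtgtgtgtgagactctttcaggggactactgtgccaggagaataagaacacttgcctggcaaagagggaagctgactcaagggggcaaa
Ghr, chr2:54432076-54432325, minus strand: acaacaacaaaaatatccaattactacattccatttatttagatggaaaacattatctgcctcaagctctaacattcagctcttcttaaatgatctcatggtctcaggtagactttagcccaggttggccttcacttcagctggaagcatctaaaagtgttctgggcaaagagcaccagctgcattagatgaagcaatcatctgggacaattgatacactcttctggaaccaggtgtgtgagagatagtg
Igfals, chr10:14403600-14403849, plus strand: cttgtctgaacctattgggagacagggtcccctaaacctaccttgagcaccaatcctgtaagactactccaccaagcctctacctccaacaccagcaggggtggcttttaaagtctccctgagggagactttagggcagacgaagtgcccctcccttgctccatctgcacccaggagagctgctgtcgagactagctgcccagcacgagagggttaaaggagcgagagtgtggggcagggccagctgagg
Igf1, chr7:24172282-24172531, plus strand: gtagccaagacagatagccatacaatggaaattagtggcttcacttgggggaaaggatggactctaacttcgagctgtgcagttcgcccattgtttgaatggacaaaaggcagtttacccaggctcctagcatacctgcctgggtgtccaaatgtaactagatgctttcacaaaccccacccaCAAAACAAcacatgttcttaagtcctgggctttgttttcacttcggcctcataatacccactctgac
Igfbp1, chr14:86261027-86261276, plus strand: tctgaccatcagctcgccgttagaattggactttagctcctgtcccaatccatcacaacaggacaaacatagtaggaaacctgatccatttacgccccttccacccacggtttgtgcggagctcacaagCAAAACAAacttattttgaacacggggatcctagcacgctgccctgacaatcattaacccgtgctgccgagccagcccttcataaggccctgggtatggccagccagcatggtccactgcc
The printed Prlr window is the downstream one of its pair, and it holds TTCTAGGAA beginning 176 bases before the start. It was the 1 member window of 10 with the STAT5 motif, which occurs in 7.67% of the 33469 windows in the table when 250 bases of each are searched. The motif reads the same in pattern on both strands. The insulin response core was found, with both strands searched, in the Igfbp1 window at 121 bases and in the Igf1 window at 67 bases before the start. It occurs in 1.94% of all windows. Since this motif is known from Igfbp1 and was chosen after reading the windows, that share cannot test enrichment. By the RefSeq gene table of the same assembly, the printed windows of Prlr, Ghr, Igf1 and Igfals lie inside the span of their own gene, and that of Igfbp1 lies before it. A match describes these letters only, and no binding was measured. Igfbp1 and Igfbp3 are direct neighbours on chromosome 14, with 0 protein-coding genes between them in the RefSeq gene table.

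Of the 14 probes, 4 fell in fibrosis, 0 rose and 10 did not pass (limma, adjusted p under 0.05 over all 19731 tested probes). They belonged to Prlr, Igfals and Ghr, the last with 2 of its 3 probes. The 4 probes are 28.6% of the members, where 6.79% of all tested probes were lower and 12.4% were higher. The groups did not overlap for 7 of the 14 probes, against 38.4% of all tested probes. The median difference, fibrosis minus normal on the log2 scale, was -0.72 over the 14 probes and -0.10 over all tested probes. All 14 probes were well above background on every array except 1 Ghr probe, which was dim on fibrosis array 2.

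All values below are log2 processed signals minus the array's 75th percentile, so that 0 is the level of that percentile and each step of 1 is a doubling. They are compared within a probe only, since the level of one probe cannot be set against that of another. On all arrays together, 2439 probes were higher and 1339 lower. That balance depended on the scaling, being 1890 and 3884 with the array median, 2770 and 357 with the spiked E1A controls, and 6195 and 253 when arrays were scaled to 12 hepatocyte markers, a setting added after seeing the data. The median difference of all probes was -0.45, 0.21 and 0.72 in these settings. Each difference is relative to the reference of its setting, and this median was not taken off. With 3 arrays against 3, an exact permutation test cannot give a two-sided p below 0.1, and that value was reached by every probe whose groups did not overlap.

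**Figure D1:**
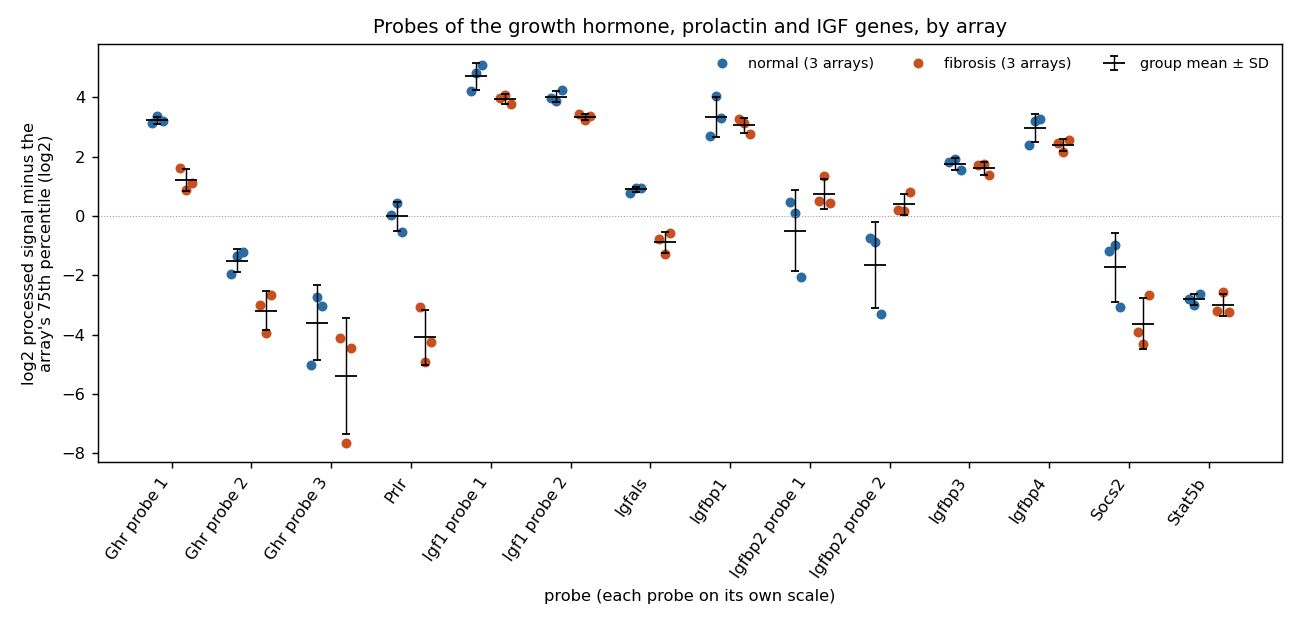
Log2 processed signal minus the array's 75th percentile (y axis) for the 14 probes (x axis), with normal arrays in blue, fibrosis arrays in orange and the group mean ± SD in black (3 arrays per group). The groups are apart by the widest margin for Prlr. They overlap for Igfbp1, Igfbp3, Igfbp4, Socs2, Stat5b, the dimmest Ghr probe and the brighter Igfbp2 probe.

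Prlr, the prolactin receptor, had the largest fall of the 14 probes. Its probe stood at 0.04, 0.45 and -0.53 in normal arrays 1, 2 and 3 and at -3.08, -4.91 and -4.26 in fibrosis arrays 1, 2 and 3. The lowest normal liver lay far above the highest fibrotic liver, fibrosis array 1, and the groups did not overlap. The mean was -0.01 ± 0.49 (SD, n = 3) in normal and -4.09 ± 0.93 (SD, n = 3) in fibrotic liver. The difference of -4.07 ± 0.47 (SE, limma adjusted p = 0.000826) is a 16.8-fold lower signal, with a 95% interval of 7.91-fold to 35.8-fold. In bulk tissue, fewer cells that express a gene and less RNA per cell cannot be told apart, and this holds for every value here.

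The Prlr probe was printed at 10 spots on each array, which shows how well a single array measured it. The SD between spots ran from 0.12 on fibrosis array 1 and normal array 3 to 0.44 on normal array 2, small beside the difference between the groups. The highest spot of any fibrosis array was -2.80 and the lowest spot of any normal array was -0.74. The scanner software marked 7, 10 and 8 of the spots on normal arrays 1, 2 and 3 as uneven or outlying, and 0, 0 and 1 on the fibrosis arrays. The call stood with marked spots left out, at -3.81 (adjusted p = 0.0028). Normal array 2 had no value in that fit, since all 10 of its spots were marked.

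**Figure D2:**
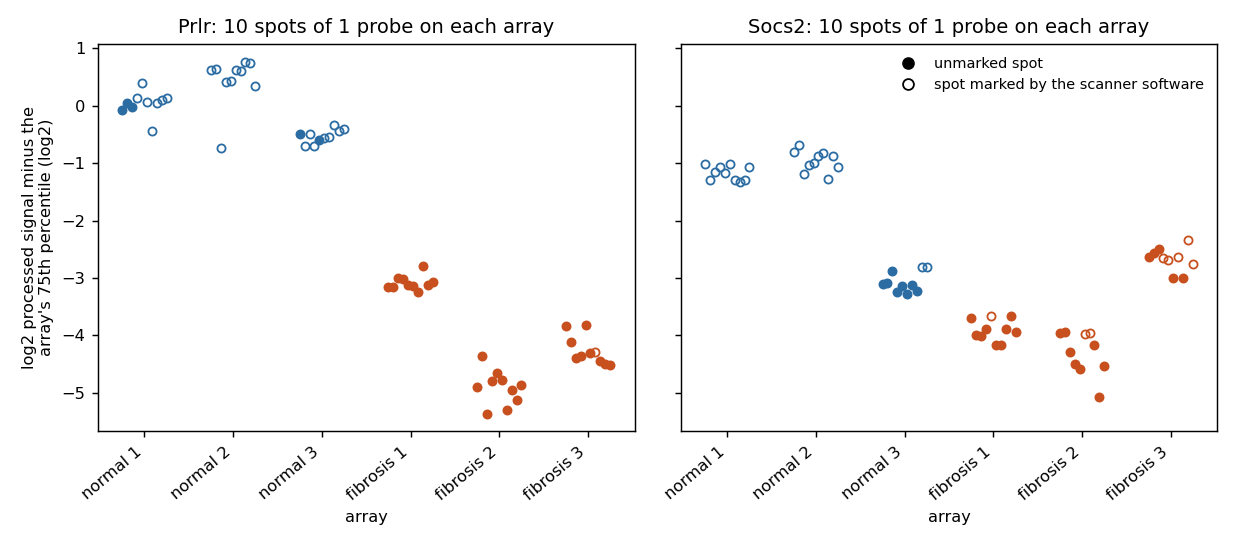
Log2 processed signal minus the array's 75th percentile (y axis) for each of the 10 spots of the Prlr probe (left) and the Socs2 probe (right) on each array (x axis); filled points are unmarked spots and open points are spots marked by the scanner software. Prlr spots separate the groups completely, while Socs2 spots of normal array 3 lie with those of the fibrosis arrays.

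Ghr, the growth hormone receptor, fell by its brighter 2 probes. The brightest (A_44_P320858) read 3.12, 3.36 and 3.19 in the normal livers and 1.62, 0.89 and 1.11 in the fibrotic livers. The normal livers were close together, and the fibrotic livers were all lower. The difference was -2.02 ± 0.27 (SE, limma adjusted p = 0.00156), a 4.05-fold lower signal with a 95% interval of 2.65-fold to 6.19-fold. This probe had 1 spot per array, marked on all 6, so it had no value when marked spots were left out.

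The second Ghr probe (A_64_P041812) stood at -1.96, -1.34 and -1.21 in normal and -3.01, -3.93 and -2.65 in fibrotic liver. Its groups did not overlap either, with fibrosis array 2 the lowest. The log2 difference was -1.69 ± 0.38 (adjusted p = 0.0167), and it did not pass when normal array 2 was dropped (-1.61, 0.0686) or normal array 3 (-1.55, 0.0786), nor with E1A scaling (-1.39, 0.0816). The dimmest Ghr probe (A_43_P11817) gave -5.03, -2.72 and -3.04 against -4.11, -7.66 and -4.45. Normal array 1 lay among the fibrosis arrays on that probe, and fibrosis array 2 was not well above background. Its difference of -1.81 ± 0.96 (adjusted p = 0.239) was similar in size with a wider error, and it was -0.68 without fibrosis array 2. All 3 probes are annotated to the same transcript, so they are repeated measures of the same 6 RNA samples.

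Stat5b, the transcription factor that carries the growth hormone signal to the nucleus, read -2.82, -3.01 and -2.62 in normal and -3.22, -2.56 and -3.23 in fibrotic liver. The groups overlapped, and fibrosis array 2 was the highest of the 6. The difference was -0.19 ± 0.27 (adjusted p = 0.692), with a 95% interval of -0.82 to 0.44. Its partner Stat5a stood at 0.18 ± 0.31 (0.743) and the kinase Jak2 at 0.52 ± 0.27 (0.230).

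Socs2, the feedback inhibitor of the growth hormone receptor and itself a STAT5 target, read -1.17, -0.96 and -3.07 in normal and -3.91, -4.30 and -2.68 in fibrotic liver. Normal arrays 1 and 2 were higher than every fibrosis array, but normal array 3 lay below fibrosis array 3. The difference of -1.90 ± 0.62 did not pass (adjusted p = 0.0692). Without normal array 3 it was -2.56 (adjusted p = 0.0195), and without fibrosis array 3 it was -2.37 (0.0376), both called. It was also called with the array median (-2.25, 0.0261), normexp (-1.69, 0.0492) and array weights (-1.95, 0.0270). The trend and robust settings called it too (adjusted p = 0.0496), and no other alternative did. The 10 spots per array gave an SD between 0.13 and 0.37, and the arrays stood apart spot by spot: those of normal array 3 ran from -3.29 to -2.81 and the spots of normal array 2 from -1.28 to -0.68. The software marked 10, 10 and 2 spots on the normal arrays and 1, 2 and 5 on the fibrosis arrays, and the probe could not be fitted without marked spots.

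Igf1, the hormone made by the liver under growth hormone, was measured by probes for different transcript variants. The brighter one (A_64_P052740) stood at 4.21, 4.81 and 5.10 in normal and 3.97, 4.10 and 3.78 in fibrotic liver. The other (A_44_P366723) stood at 3.97, 3.87 and 4.24 against 3.43, 3.23 and 3.38. On both probes every fibrotic liver was below every normal liver. The differences of -0.76 ± 0.29 (adjusted p = 0.110) and -0.68 ± 0.23 (0.0782) did not pass the test. Both were called with the array median (-1.11 and -1.04), with normexp (-0.79 and -0.81), with array weights (-0.86 and -0.64) and with the trend and robust settings of eBayes (adjusted p = 0.0420 and 0.0197). They were near 0 with quantile normalization (-0.19 and -0.24) and cyclic loess (-0.20 and -0.19).

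Igfals, which encodes the acid-labile subunit of the large circulating IGF complex, fell. Its probe read 0.78, 0.94 and 0.96 in normal and -0.79, -1.29 and -0.59 in fibrotic liver. The normal livers had an SD of 0.09, the smallest of the 14 probes, and all 3 fibrotic livers were lower. The difference was -1.78 ± 0.26 (limma adjusted p = 0.00259), a 3.44-fold lower signal with a 95% interval of 2.27-fold to 5.22-fold. Its spots were marked on every normal array, so it too had no value without marked spots. Fibrosis arrays 2 and 3 lay on the second row of the slide and the other 4 arrays on the first. With the slide row as a covariate, the difference rests on fibrosis array 1 alone against the normal arrays. It was -1.68 for Igfals, -1.60 for the brightest Ghr probe, -1.50 for the second Ghr probe and -3.07 for Prlr. The slide row cannot be separated from the livers of fibrosis arrays 2 and 3, so an effect of the row could not be tested.

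**Figure D3:**
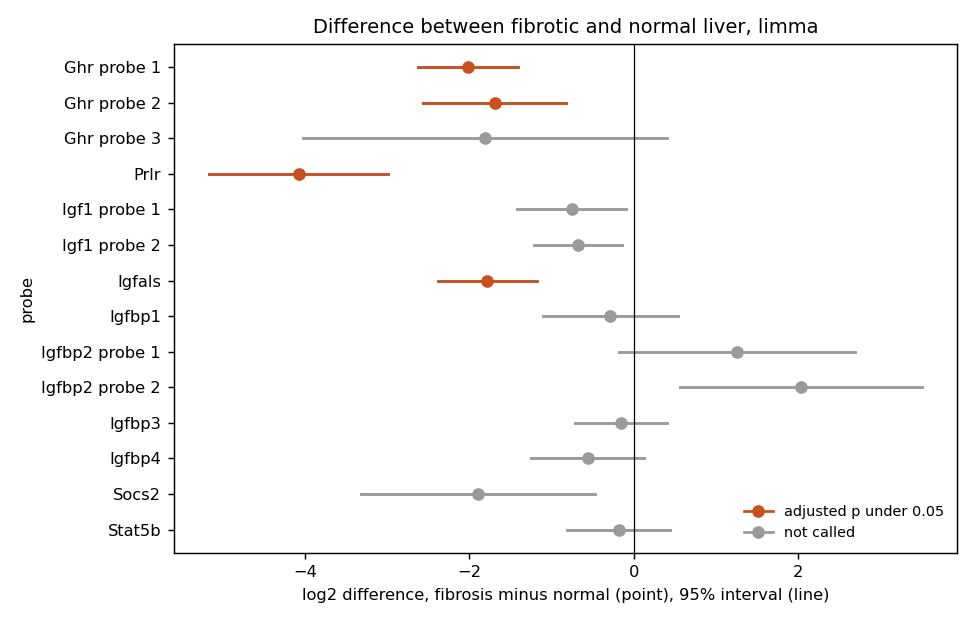
Log2 difference, fibrosis minus normal (x axis, point), with its 95% interval from limma (line) for the 14 probes (y axis); orange marks an adjusted p under 0.05 over all tested probes and grey the rest. The 4 called probes, of Ghr, Prlr and Igfals, all lie below 0, and both Igfbp2 probes lie above 0 without passing.

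The binding proteins did not move as 1 group, and none of their 5 probes passed. Igfbp2, a binding protein abundant in fetal serum, had the 2 member probes above 0. Its brighter probe (A_64_P039026) read 0.47, 0.09 and -2.06 in normal and 0.50, 1.33 and 0.42 in fibrotic liver. The other (A_64_P032415), with 1 spot per array, read -0.73, -0.89 and -3.32 against 0.20, 0.16 and 0.80. Normal array 3 was more than 2 log2 units below the other normal livers on both probes, and the groups were apart on the second probe only. The differences were 1.25 ± 0.62 (adjusted p = 0.210) and 2.03 ± 0.64 (0.0607). They dropped to 0.47 and 1.20 (0.0705) without normal array 3. The second probe passed with E1A scaling (2.34, 0.0264), normexp (1.73, 0.0480), array weights (2.16, 0.0325) and the trend and robust settings (adjusted p = 0.0378).

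Igfbp1, the binding protein that insulin represses, varied more among normal than among fibrotic livers. It read 2.70, 4.03 and 3.29 in normal and 3.26, 3.14 and 2.77 in fibrotic liver. Normal arrays 1 and 2 were the lowest and the highest of the 6, and the fibrotic livers lay between them. The difference was -0.29 ± 0.36 (adjusted p = 0.635, 95% interval -1.11 to 0.54), and its sign depended on the scaling.

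Igfbp3, its neighbour on the chromosome and the main carrier of circulating IGF1, read 1.81, 1.93 and 1.54 in normal and 1.70, 1.75 and 1.37 in fibrotic liver. The groups overlapped. The difference was -0.15 ± 0.24 (adjusted p = 0.712, 95% interval -0.71 to 0.40), and it too took either sign with the scaling. Igfbp4, which inhibits IGF action and is cut by the protease PAPP-A, stood at 2.41, 3.19 and 3.27 against 2.47, 2.16 and 2.55. Normal array 1 lay among the fibrotic livers. Its difference of -0.56 ± 0.30 (0.240) did not pass in any of the alternatives run.

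The members differed in how much they varied within a group. Among normal livers their SD ran from 0.09 (Igfals) to 1.45 (the second Igfbp2 probe), with a median of 0.46 against 0.23 over all tested probes. Among fibrotic livers it ran from 0.11 (the second Igf1 probe) to 1.96 (the dimmest Ghr probe), with a median of 0.37 against 0.42. Normal array 3 was the lowest normal liver for 5 probes, those of Prlr, Igfbp2, Igfbp3 and Socs2, and the highest for 6, among them both Igf1 probes. Fibrosis array 2 was the lowest fibrotic liver for 9 of the 14 probes.

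Hepatocytes make most of the liver's Ghr, Igf1 and Igfals RNA, and part of the marker list of this cell type was lower too. Of 12 hepatocyte markers tested, 2 fell and 0 rose, where 7.62% of genes were lower and 14.7% higher when each gene stands by its brightest probe. The falls were Asgr2, a subunit of the asialoglycoprotein receptor (-1.31 ± 0.28, adjusted p = 0.0151), and Apoh, an apolipoprotein of plasma (-0.93 ± 0.23, 0.0243). Asgr2 did not pass without normal array 2 (0.0703) or 3 (0.0661), nor Apoh without any 1 normal array (from 0.0742 to 0.121) or without fibrosis array 1 (0.0719). All 12 values lay below 0, from -1.31 to -0.48, with a median of -0.80 against -0.07 over all genes. Their summed level, as multiples of the 75th percentile, ran from 188 to 207 in normal and from 112 to 141 in fibrotic liver.  The 4 member probes that fell had larger differences than any of these markers, and the differences of Igf1 lay within their range. With quantile normalization, cyclic loess and E1A scaling the median of the markers was -0.38, -0.34 and -0.49, Apoh did not pass (-0.41, -0.35 and -0.62, adjusted p = 0.245, 0.322 and 0.239), and Apoa1 turned above 0 in the first and second of these (0.038 and 0.088). Asgr2 did not pass with E1A scaling (adjusted p = 0.149).

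When each array was scaled to the mean of these 12 markers, Prlr was still lower by -3.26 ± 0.47 (limma adjusted p = 0.000306) and the brightest Ghr probe by -1.21 ± 0.33 (0.0156), and their groups did not overlap. Igfals stood at -0.97 ± 0.35 (0.0518) and the second Ghr probe at -0.88 ± 0.41 (0.115), neither called. Relative to the markers, Igf1 did not differ detectably, at 0.06 ± 0.31 (0.893) and 0.13 ± 0.32 (0.748) for its probes. Both Igfbp2 probes then rose, by 2.06 ± 0.60 (0.0225) and 2.85 ± 0.64 (0.00555). This scaling moves the median of all probes to 0.72, so a rise under it is a rise relative to hepatocyte transcripts and not to the array.

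Markers of other cells in the tissue block differed by cell type. Of 9 cholangiocyte markers tested, 7 rose and 0 fell, with Krt7, a duct keratin, at 5.65 ± 0.53 (adjusted p = 0.000306) and Sctr, the secretin receptor, at 5.47 ± 0.44 (0.000146). Their summed level ran from 1.47 to 1.90 in normal and from 9.90 to 12.4 in fibrotic liver. Of 10 stellate cell and myofibroblast markers, 5 rose and 0 fell, led by Col1a1 at 3.19 ± 0.64 (0.0106) and Des at 3.01 ± 0.29 (0.000314), and their sums ran from 8.31 to 13.1 and from 18.5 to 37.9. Of 9 Kupffer cell and macrophage markers, 1 fell (Cd14, -1.33 ± 0.28, 0.0140, or 0.0673 and 0.0757 without normal array 2 or 3) and 0 rose, with sums of 16.5 to 20.8 against 22.3 to 25.3, and Cd163 stood at 0.96 ± 0.31 (0.0681). Of 5 endothelial markers tested 0 were called, and they lay on both sides of 0. Kdr stood at -0.75 ± 0.23 (0.0575), Tek at -0.64 ± 0.38 (0.286) and Lyve1 at -0.27 ± 0.38 (0.674). Pecam1 (0.19 ± 0.34, 0.753) and Cdh5 (0.33 ± 0.29, 0.481) lay above 0. The endothelial sums were up to 12.5 in normal and 7.15 to 10.3 in fibrotic liver, every fibrotic liver lying below every normal one. Kdr had the highest value of the 5 on every array, so it weighs most in these sums. Stab1, Stab2, Clec4g and Vwf gave no tested value. Of the lymphocyte markers, Ptprc, the leukocyte common antigen, stood at 0.90 ± 0.34 (0.111). Cd2 (0.57 ± 0.25, 0.164) and Cd3d (0.56 ± 0.29, 0.232) also lay above 0. Cd8a (-0.89 ± 0.35, 0.115), Cd79b (-0.81 ± 0.37, 0.174) and Nkg7 (-0.06 ± 0.29, 0.916) lay below 0. None of these lymphocyte markers was called. The part of these cells in the values of the members was not tested.

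**Figure D4:**
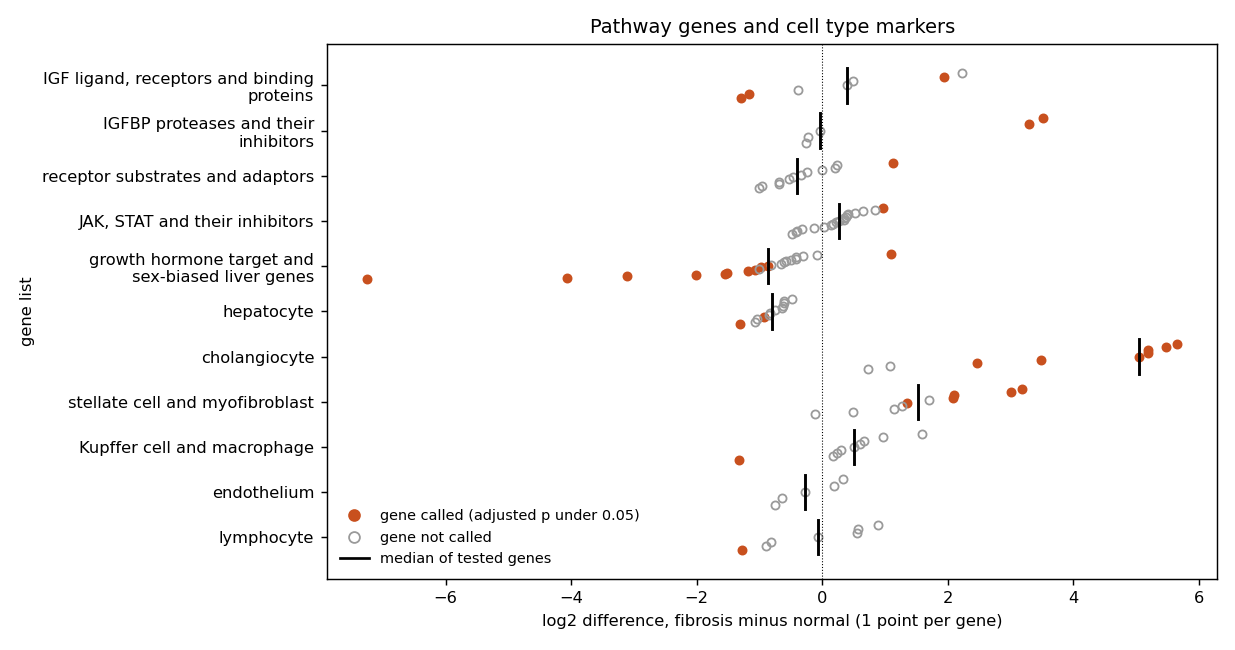
Log2 difference, fibrosis minus normal (x axis), of each tested gene in 5 pathway lists and 6 cell type marker lists (y axis), 1 point per gene by its brightest probe; orange points are called, grey open points are not, and black bars are list medians. Cholangiocyte markers lie to the right, and the growth hormone target and sex-biased genes reach farthest to the left.

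Other genes of the pathway were read from lists chosen with earlier results of these data known. Of 7 tested IGF ligand, receptor and binding protein genes, 1 rose and 2 fell, with a median of 0.39. Igf1r, the receptor for IGF1, was not well above background on any normal array and was on all 3 fibrosis arrays. It entered the test through the fibrosis group alone, so its call (limma adjusted p = 0.00116) is not separate support for a rise. The measured log2 difference was 1.95 (95% interval 1.39 to 2.51), and it was 0.79 (0.0356) with normexp, so its size is not fixed by these data. Insr, the insulin receptor, read -2.84, -2.58 and -2.63 in normal and -3.98, -3.91 and -4.06 in fibrotic liver. The groups were far apart and tight, and Insr fell by 1.30 (SE 0.22, 0.00535), and stood at -0.49 (0.212) relative to the hepatocyte markers and at -0.99 (0.0700) with E1A scaling. Igf2, the fetal IGF, fell by 1.16 (SE 0.27, 0.0182). It did not pass when normal array 2 (-0.95, 0.0836), normal array 3 (-1.24, 0.0645) or fibrosis array 1 (-1.13, 0.0555) was dropped, nor with E1A scaling (-0.86, 0.146).

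Of 5 tested genes for IGFBP proteases and their inhibitors, 2 rose and 0 fell, with a median of -0.03. Mmp7, matrilysin, an epithelial protease that can cut binding proteins, rose by 3.52 ± 0.32 (adjusted p = 0.000270). Stc1, a stanniocalcin that inhibits PAPP-A, rose by 3.29 ± 0.37 (0.000659). Pappa, Pappa2, Stc2, Adam12 and Klk1 gave no tested value.

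Of 12 receptor substrates and adaptors, 1 rose and 0 fell, with a median of -0.40. Sh2b2, an adaptor of JAK2 and the insulin receptor, rose by 1.12 ± 0.22 (adjusted p = 0.0103, or 0.0689 without normal array 3), and Irs1, a substrate of the insulin and IGF receptors, stood at -0.95 ± 0.35 (0.0995). Of 19 JAK, STAT and inhibitor genes, 1 rose and 0 fell, with a median of 0.27. Ptpn1, a phosphatase that acts on JAK2 and the insulin receptor, rose by 0.97 ± 0.26 (0.0358). It did not pass when any 1 normal array was dropped (adjusted p from 0.0849 to 0.151), nor with the array median (0.61, 0.133) or normexp (0.86, 0.0665). Stat3, the transcription factor of the interleukin-6 response, stood at 0.84 ± 0.25 (0.0533).

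Of 21 tested growth hormone target and sex-biased liver genes, 10 fell and 1 rose, against 7.62% and 14.7% of all genes, with a median of -0.86. The falls ran from -7.25 to -0.86, and 20 of the 21 values lay below 0. Cyp2c11, a cytochrome P450 of rat liver that pulsatile growth hormone maintains, read 2.61, 3.09 and 3.98 in normal and -3.53, -5.36 and -3.18 in fibrotic liver. The groups did not overlap, and it fell by 7.25 (SE 0.59, limma adjusted p = 0.000148). A1bg, a plasma protein gene under growth hormone control, was dim on all 3 fibrosis arrays, none of them well above background. It entered the test through the normal group alone, so its call (limma adjusted p = 0.00947) is not separate support for a fall. The normal arrays were spread widely at -2.09, -3.08 and -5.71. The bound on the fall was 11.8-fold in the main setting. The log2 difference with normexp was -2.23, which is smaller than that bound, so the size of the fall is not fixed by these data. Cyp2c12, another P450 of the list, rose (95% interval 0.38 to 1.81 on the log2 scale, 0.0426). It did not pass when normal array 1 (0.92, 0.146) or 3 (0.96, 0.177) or any 1 fibrosis array (adjusted p from 0.0558 to 0.111) was dropped. With the array median it did not pass either. Cyp2c12 was the only value of the list above 0. Srd5a1 (-3.11 ± 0.27, 0.000211) and Cyp2c7 (-2.01 ± 0.27, 0.00174) fell, and Cyp2a1 (-0.57 ± 0.22, 0.115) did not pass. A shift between male-type and female-type genes was not tested. Under other scalings, 13 genes of this list were lower by the array median, 6 by quantile normalization, and 5 each by cyclic loess and E1A. Relative to the hepatocyte markers, 4 were lower and the median of the list was -0.05.

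Genes with the most similar profiles over the 6 arrays were found by the root mean square distance between log2 values, each centred on its own mean, among at least 12622 named probes. For the brighter Igf1 probe they were Numb, an adaptor of the Notch pathway (distance 0.09), Aass, an enzyme of lysine breakdown (0.10), and Mettl9 (0.11). For the brightest Ghr probe they were the P450 genes Cyp4v3 (0.09), Cyp1a2 (0.11) and Cyp2c7 (0.13), whose differences were -1.90, -2.09 and -2.01. For Prlr the distances were larger, at 0.41 for Adh6, an alcohol dehydrogenase, 0.47 for another probe of Cyp2c7 and 0.48 for Sez6. The measure reflects mainly the difference between the groups, and it is a description of 6 arrays.

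**Figure D5:**
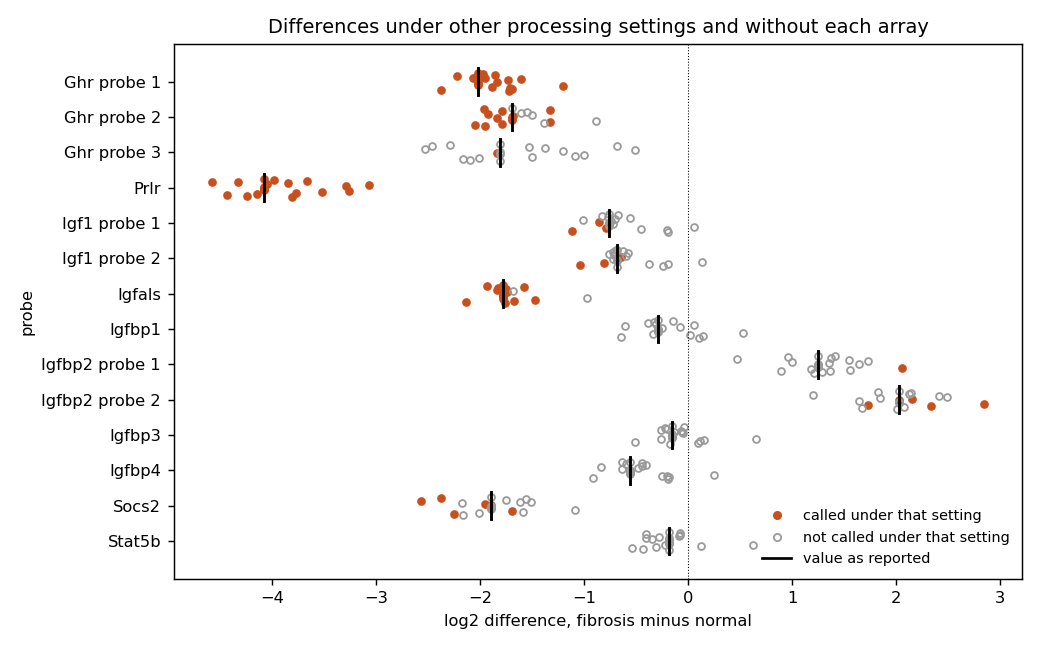
Log2 difference, fibrosis minus normal (x axis), of each of the 14 probes (y axis) under each other processing setting and without each array (points) beside the value as reported (black bar); orange points are called under that setting and grey open points are not. All points of Prlr and of the brightest Ghr probe lie below 0 and are called. Those of Igfbp1, Igfbp3, Igfbp4, Stat5b and both Igf1 probes fall on both sides of 0.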

How the data were processed

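Liver RNA of 6 rats was read on 6 Agilent arrays of 1 colour (Cy3), 1 per animal, grouped by the tissue label. The deposited values are spot intensities that Agilent Feature Extraction 11.5.1.1 wrote, background-subtracted and detrended within each array, per the file headers. No step between arrays is recorded there. All 6 arrays shared 1 slide and 1 scan. The deposited flags (other values in the files) gave control spots, marked spots and spots well above background. The number of arrays limits the precision. The 75th percentile of the intensity ran from 3755 to 4386 on normal and from 4840 to 6401 on fibrosis arrays, and 67.2% to 78.0% of spots were well above background, 18.8% to 35.2% were marked, and 0 were saturated.

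The log2 processed signal of each spot had its array's 75th percentile subtracted, and spots of a probe were averaged with marked spots kept. A probe entered the test when, in 1 group or both, every array had at least 0.5 of its spots well above background. limma 3.58.1 under R 4.3.3 (lmFit, eBayes) compared the groups, p-values were adjusted by Benjamini-Hochberg across the tested probes, and the fit was tested on simulated data. Accessions matched the RefSeq table of GRCr8 for 18355 probes. No coordinates of arrayed features were used. A list gene stood by its brightest probe. All member probes are named, and per list up to 2 called genes with the largest increase and 2 with the largest decrease, completed to a pair by the smallest p, along with Stat5a and Jak2, chosen after their values were seen. A bound sets the bright group's mean against a floor taken on each dim array: its lowest signal well above background, or the probe itself where brighter. Alternatives covered marked spots, scaling, background (normexp on median signals, since no mean signal column was used), filters, probe summaries, variance models, slide row and each array left out. The members and lists were chosen with earlier results of these data known. The result of 1 lymphocyte marker is not reported here.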

Additional observations from a re-analysis of the deposited data

How the results depend on the processing

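Over the 21 alternatives run, wherever it could be fitted, Prlr kept its call and direction (from -4.57 to -3.07), and so did the brightest Ghr probe (from -2.37 to -1.21). With marked spots left out, 6 of the 14 member probes could be fitted. No paired analysis was possible because the groups are different animals, replicates were numbered in accession order, and nothing in the labels ties a normal rat to a fibrotic one. Against 4 members lower and 0 higher, 1 was lower with marked spots left out and 7 with the array median. With normexp, with array weights and with the trend and robust settings, 7 were lower and 1 higher each. With E1A scaling 3 were lower and 1 higher, and with hepatocyte marker scaling 2 and 2. Without 1 array, 3 to 5 were lower and 0 higher. Over all probes, against 2439 higher and 1339 lower, the lower ones numbered 610 with marked spots left out, 3884 with the array median, 357 with E1A scaling, 253 with hepatocyte marker scaling (6195 higher), 799 with no filter on dim probes, 3580 with array weights, 178 with the slide row (1020 higher) and 385 at an adjusted p under 0.01 (1422 higher), and without 1 array 450 to 1620 (1514 to 2851 higher). In the pathway lists, against 12 lower, 19 were lower by the array median, 7 by cyclic loess and 5 by E1A, and in the marker lists, against 4, 14 by the array median and 0 by E1A. Signs turned for Igfbp1 with cyclic loess (0.15), quantile normalization (0.10), E1A (0.023) and hepatocyte scaling (0.53) and without normal array 2 (0.060, in a range from -0.61 without 1 array), for Igfbp3 with cyclic loess (0.12), quantile normalization (0.092), E1A (0.15) and hepatocyte scaling (0.66), for Stat5b with E1A (0.12) and hepatocyte scaling (0.63), and with hepatocyte scaling for Igfbp4 (0.25) and both Igf1 probes (0.055 and 0.13). None of these was called. The cause was not tested.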
